A study of Solanum lycopersicum with 12 samples.

Results

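A group of 35 tomato genes had less RNA in leaflets mined by larvae of *Tuta absoluta* than in control leaflets after 5 h and again after 24 h. They were selected from 34075 counted genes on the measured values themselves. Levels are given as CPM, the count of a gene per 1000000 counts of its library. A gene entered the group when its control mean was at least 5 CPM at both times, its infested mean was at most 0.5 times its control mean at both times, and each infested library lay below each control library of its time. Of the 11284 genes that met the control floor, 272 met the other conditions at 5 h (2.41%), 218 met them at 24 h (1.93%) and 35 met them at both times (0.31%). The ratios of infested to control therefore describe these genes and test nothing.

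*T. absoluta* is a moth whose larvae mine tomato leaves. The compared plants were infested plants, which received 6 larvae each on terminal leaflets of a single leaf, and control plants, on which deposition was only mimicked. All were of the cultivar Better Bush, grown hydroponically in a growth chamber, and leaflets were taken after 5 h or 24 h, once the larvae had been removed, with 3 libraries in each of the 4 groups and 12 in all. The study's methods give 6 infested and 6 control plants for these harvests. Whether each library came from 1 plant is not stated, so p-values measure the spread between these libraries. Library totals were between 19655669 and 28209033 counts. Each harvest is 1 time after deposition and 1 shared input named in the file headers, so the hour of the day, the time since deposition and the harvest itself cannot be told apart.

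Plants attacked by chewing insects turn on defence genes through jasmonate signalling, and RNA of genes for photosynthesis, growth and primary metabolism often declines as defence genes are induced. Many leaf genes also follow the hour of the day through light and the circadian clock, among them genes of chlorophyll synthesis. Annotations were available for 25 of the 35 genes, as Gene Ontology terms for 24 and InterPro domains for 6, and 10 genes had neither. Of those 10, *Solyc05g043330* was not in the study's list from which the annotations were taken.

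The infested mean was 33.2% of the control mean at 5 h in the median gene, within a range of 5.92% to 49.2%. At 24 h the median was 42.8%, within a range of 22.2% to 49.97%. The ratio was lower at 5 h than at 24 h in 28 of the 35 genes, and it was 0.25 or less in 8 genes at 5 h and in 2 at 24 h. Over all genes at the floor the median ratio was 0.978 at 5 h and 1.12 at 24 h. The count of 28 therefore depends on the scaling. By CPM the median log2 ratio of the selected genes was -1.59 at 5 h and -1.23 at 24 h. In the edgeR fits, scaled by TMM, these medians were closer, at -1.61 and -1.41. Several of the 28 genes then had the lower ratio at 24 h, such as *Solyc01g098150* with -1.05 at 5 h and -1.21 at 24 h. The others of these were *Solyc01g098630*, *Solyc01g111330*, *Solyc02g085220*, *Solyc03g098010*, *Solyc03g112460*, *Solyc03g119150*, *Solyc08g066610* and *Solyc09g083090*. Loss of cells of a given type and less RNA per cell cannot be told apart in these libraries.

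**Figure D1:**
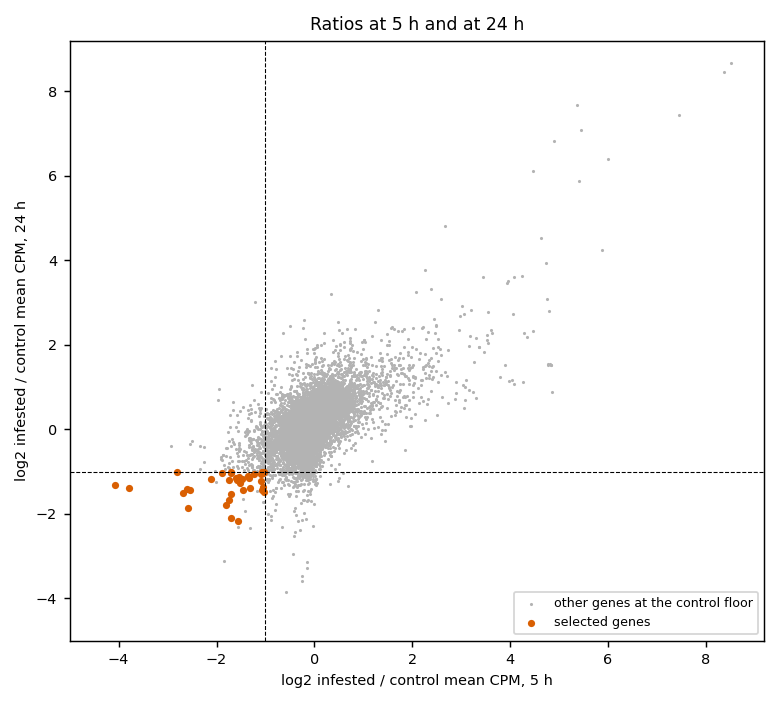
Log2 ratio of the infested to the control mean CPM at 5 h (horizontal axis) and at 24 h (vertical axis) for the 11284 genes at the control floor, with the 35 selected genes in orange and the ratio limit of 0.5 as dashed lines. Grey points in the lower left corner met the ratios but had overlapping libraries, and the selected genes spread farther to the left than downwards.

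The infested libraries were not equally low. The selected genes had a median of 40.8%, 27.98% and 34.3% of the control mean in the infested libraries of 5 h, replicates 1 to 3. In the infested libraries of 24 h the median was 32.3%, 54.0% and 39.5%. Replicate 2 had the lowest infested value at 5 h in 27 of the 35 genes, whereas at 24 h replicate 2 had the highest in 28 and replicate 1 the lowest in 30. Over all genes at the floor the infested libraries also differed. Their median log2 ratios to the control mean, replicates 1 to 3, were 0.06, -0.10 and -0.07 at 5 h. At 24 h they were 0.14, 0.26 and 0.02. Replicate 2 was thus lowest at 5 h and highest at 24 h there too, while replicate 1 of 24 h was not the lowest. Levels of the selected genes had a median coefficient of variation of 28.4% in infested and 16.0% in control leaflets at 5 h. At 24 h it was 29.97% in infested and 20.01% in control leaflets. Without replicate 2 of the infested libraries of 24 h, 67 genes met the conditions, and without replicate 2 of the controls of 24 h, 54 did.

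**Figure D2:**
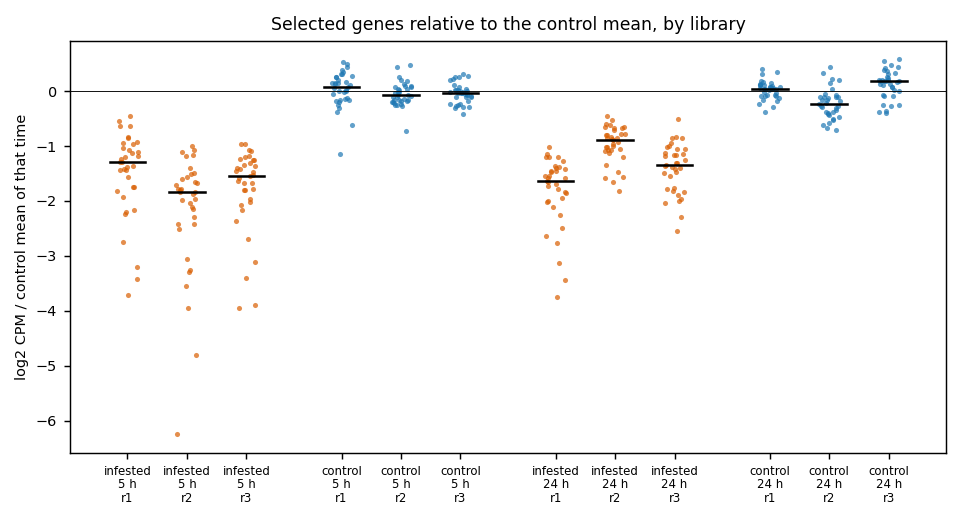
Level of each of the 35 selected genes in each library, as the log2 of its CPM over the control mean of the same time (vertical axis), with infested libraries in orange, control libraries in blue and the median over the genes as a black bar. The infested median was lowest at 5 h in replicate 2 and highest at 24 h in replicate 2.

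The highest CPM of the group at 5 h, not corrected for gene length, belonged to a pair annotated with protochlorophyllide reductase activity, the enzyme activity that reduces protochlorophyllide to chlorophyllide in the synthesis of chlorophyll. *Solyc12g013710* had 277, 438 and 425 CPM in the infested libraries of 5 h, against 1365, 1036 and 1310.3 CPM in the controls. After 24 h its levels were 3.25, 6.80 and 4.15 CPM in infested libraries, against 26.8, 12.7 and 21.4 CPM in controls, so that the infested mean was 30.7% of the control mean at 5 h and 23.3% at 24 h. The gene was thus much lower at 24 h than at 5 h in both treatments. *Solyc10g006900* had 264, 266 and 294 CPM in the infested libraries of 5 h, against 634, 532 and 558 CPM in the controls. Its values at 24 h were 16.1, 30.5 and 22.4 CPM in infested libraries, against 69.4, 46.7 and 70.4 CPM in controls. Its ratios were 0.477 at 5 h and 0.371 at 24 h. For both genes each infested library of 5 h lay above each control library of 24 h, which held for no other selected gene. How many of all genes did so was not counted. No source used here says how reads that match both genes were counted, so their separate values are uncertain to that extent.

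A gene with the domains of class I fructose-bisphosphate aldolase, which cleaves and forms fructose bisphosphate in glycolysis and in the Calvin cycle, had the highest CPM of the group at 24 h, again not corrected for length. *Solyc07g065900* had 101, 70.6 and 55.0 CPM in the infested libraries of 5 h and 219.7, 236 and 285 CPM in the controls. At 24 h it had 349, 641 and 503 CPM in infested libraries and 1051, 1049 and 961 CPM in controls. Infested leaflets of 24 h thus held more of this RNA than control leaflets of 5 h while staying at 48.8% of their own control. It was among 11 of the 35 genes in which each infested library of 24 h was above each control library of 5 h. That count was not made over all genes, so it does not set the selected genes apart.

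**Figure D3:**
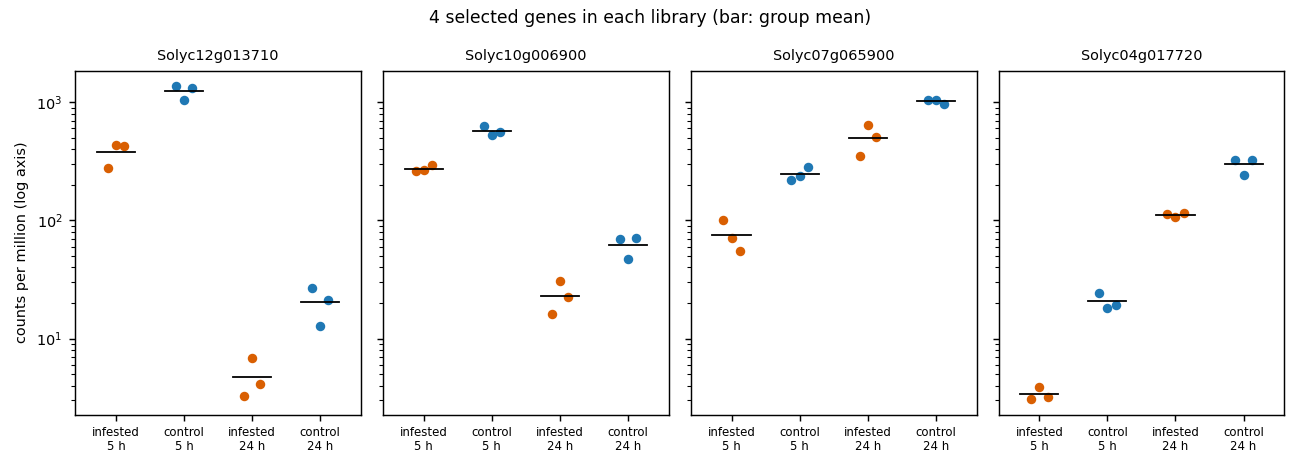
CPM (log axis) in each library of the protochlorophyllide reductase genes Solyc12g013710 and Solyc10g006900, of the aldolase gene Solyc07g065900 and of the gene Solyc04g017720, with no annotation held,, by group, with the group mean as a bar. Infested libraries lie below controls of the same time in each panel, while the difference between 5 h and 24 h is larger and runs down in the reductase genes and up in the others.

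Oxidoreductases included the gene with the lowest ratio of all. *Solyc03g006880* had 3.41, 1.595 and 2.90 CPM in the infested libraries of 5 h, against 51.2, 38.6 and 43.7 CPM in the controls, and its mean was 5.92% of the control mean. After 24 h its levels were 5.89, 15.4 and 6.99 CPM in infested libraries and 21.9, 22.0 and 27.3 CPM in controls, 39.8% of the control mean. The deficit was therefore much smaller at 24 h, with a difference of the log2 ratios (24 h minus 5 h) of 2.75, the largest among the 35 genes. *Solyc03g111940*, annotated with heme and iron binding and oxidation with molecular oxygen, had 1.54, 0.744 and 1.37 CPM in infested libraries and 8.43, 6.24 and 6.58 CPM in controls at 5 h. Its values at 24 h were 2.99, 5.69 and 2.62 CPM in infested libraries and 10.5, 7.61 and 12.7 CPM in controls.

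Among genes annotated for transport, *Solyc03g120020*, an inorganic anion exchanger of the membrane, had 59.6, 28.9 and 32.8 CPM in the infested libraries of 5 h, against 250.0, 290.4 and 304 CPM in the controls. At 24 h the values were 91.9, 128 and 94.4 CPM in infested libraries and 222, 245 and 163 CPM in controls. Its ratio was 0.144 at 5 h but 0.4997 at 24 h, the nearest to the limit. *Solyc03g093140*, a transmembrane transporter, stood at 36.1% of the control mean at 5 h and at 44.2% at 24 h. *Solyc02g085220*, annotated for vesicle-mediated protein transport, stood at 48.1% at 5 h and at 48.6% at 24 h.

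Genes annotated for DNA binding or signalling included the lowest ratio of 24 h. *Solyc10g084380*, a sequence-specific DNA-binding transcription factor, had 9.03, 4.79 and 5.55 CPM in the infested libraries of 5 h and 25.7, 15.7 and 15.5 CPM in the controls. At 24 h it had 3.87, 9.55 and 9.16 CPM in infested libraries and 28.6, 22.5 and 50.5 CPM in controls, the lowest ratio of that time at 0.222. It was also the gene whose ratio was lower at 24 h than at 5 h by the widest margin, with a difference of -0.62 on the log2 scale. *Solyc01g109690*, annotated with DNA binding, had 25.2, 4.43 and 4.58 CPM in the infested libraries of 5 h and 74.1, 72.0 and 58.0 CPM in the controls. After 24 h its levels were 12.3, 95.9 and 28.3 CPM in infested libraries and 177, 185 and 137 CPM in controls. Its infested values were the most uneven of the group, with 1 library several times above the other two at each time. *Solyc09g083090*, a protein kinase, stood at 47.1% of the control mean at 5 h and at 47.7% at 24 h. *Solyc09g007710*, annotated with ADP binding and signal transduction, stood at 23.2% at 5 h and at 44.2% at 24 h.

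Phosphatases and a starvation-response gene were also among the selected genes. *Solyc03g098010* carries the domain of purple acid phosphatases, enzymes that release phosphate from esters, and had 3.01, 1.84 and 2.49 CPM in the infested libraries of 5 h, against 3.63, 10.9 and 9.50 CPM in the controls. Its values at 24 h were 10.02, 16.4 and 8.04 CPM in infested libraries and 34.3, 25.9 and 38.9 CPM in controls. *Solyc12g009480*, annotated with the cellular response to phosphate starvation, had 7.05, 3.54 and 6.41 CPM in the infested libraries of 5 h and 9.41, 20.2 and 13.95 CPM in the controls. Its values at 24 h were 39.1, 51.6 and 42.1 CPM in infested libraries and 84.7, 67.8 and 131 CPM in controls. *Solyc05g055740*, a protein tyrosine phosphatase, stood at 29.9% of the control mean at 5 h and at 43.5% at 24 h.

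Other annotated genes touched the cell wall, leaf development and sulfur metabolism. *Solyc12g055970*, of glycoside hydrolase family 9, which holds plant endoglucanases, stood at 30.9% of the control mean at 5 h and at 49.9% at 24 h. *Solyc08g066610*, annotated with positive regulation of stomatal complex development, stood at 39.6% at 5 h and at 44.7% at 24 h. *Solyc03g112460*, a carbon-sulfur lyase, had 2.31, 1.52 and 3.15 CPM in the infested libraries of 5 h and 9.11, 7.27 and 8.07 CPM in the controls. Its ratio was nearly the same at both times, 0.286 at 5 h and 0.290 at 24 h. The peptidyl-prolyl isomerase gene *Solyc03g119150* varied little between libraries, with 73.9, 64.7 and 68.5 CPM in the infested libraries of 5 h and 146, 143 and 146 CPM in the controls. At 24 h it had 60.3, 76.9 and 68.9 CPM in infested libraries and 137, 122 and 156 CPM in controls. Genes annotated only with protein or zinc binding were *Solyc02g089540*, *Solyc01g098150*, *Solyc07g008540* and *Solyc03g095860*, with ratios in that order of 0.332, 0.489, 0.270 and 0.403 at 5 h. At 24 h these were 0.437, 0.496, 0.490 and 0.384.

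Genes for which no annotation was held included some of the lowest values. *Solyc09g075590* had 0.881, 0.106 and 0.763 CPM in the infested libraries of 5 h, against 10.5, 6.85 and 6.87 CPM in the controls, and at 24 h 13.3, 22.8 and 19.0 CPM in infested libraries, against 49.9, 40.0 and 54.6 CPM in controls. Its lowest library held 3 counts. *Solyc04g017720* had 3.08, 3.86 and 3.21 CPM in the infested libraries of 5 h, against 24.5, 18.3 and 19.1 CPM in the controls. After 24 h its levels were 113, 107 and 115 CPM in infested libraries and 324, 243 and 326 CPM in controls, and it was the only gene of the group whose lowest control library was at least 2 times its highest infested library at both times. *Solyc05g005230* stood at 15.5% of the control mean at 5 h and at 35.4% at 24 h. *Solyc01g098630*, with 6.64, 7.48 and 5.70 CPM in infested and 23.1, 21.0 and 22.5 CPM in control libraries of 5 h, had a ratio of 0.297 at 5 h and of 0.315 at 24 h. *Solyc07g039190* had 58.4, 37.6 and 44.8 CPM in infested and 134, 132 and 136 CPM in control libraries of 5 h. The remaining 5, *Solyc01g111330*, *Solyc05g043330*, *Solyc06g007890*, *Solyc10g076700* and *Solyc07g042400*, had ratios in that order of 0.366, 0.492, 0.486, 0.470 and 0.428 at 5 h. In the same order the ratios at 24 h were 0.372, 0.355, 0.390, 0.428 and 0.482.

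**Figure D4:**
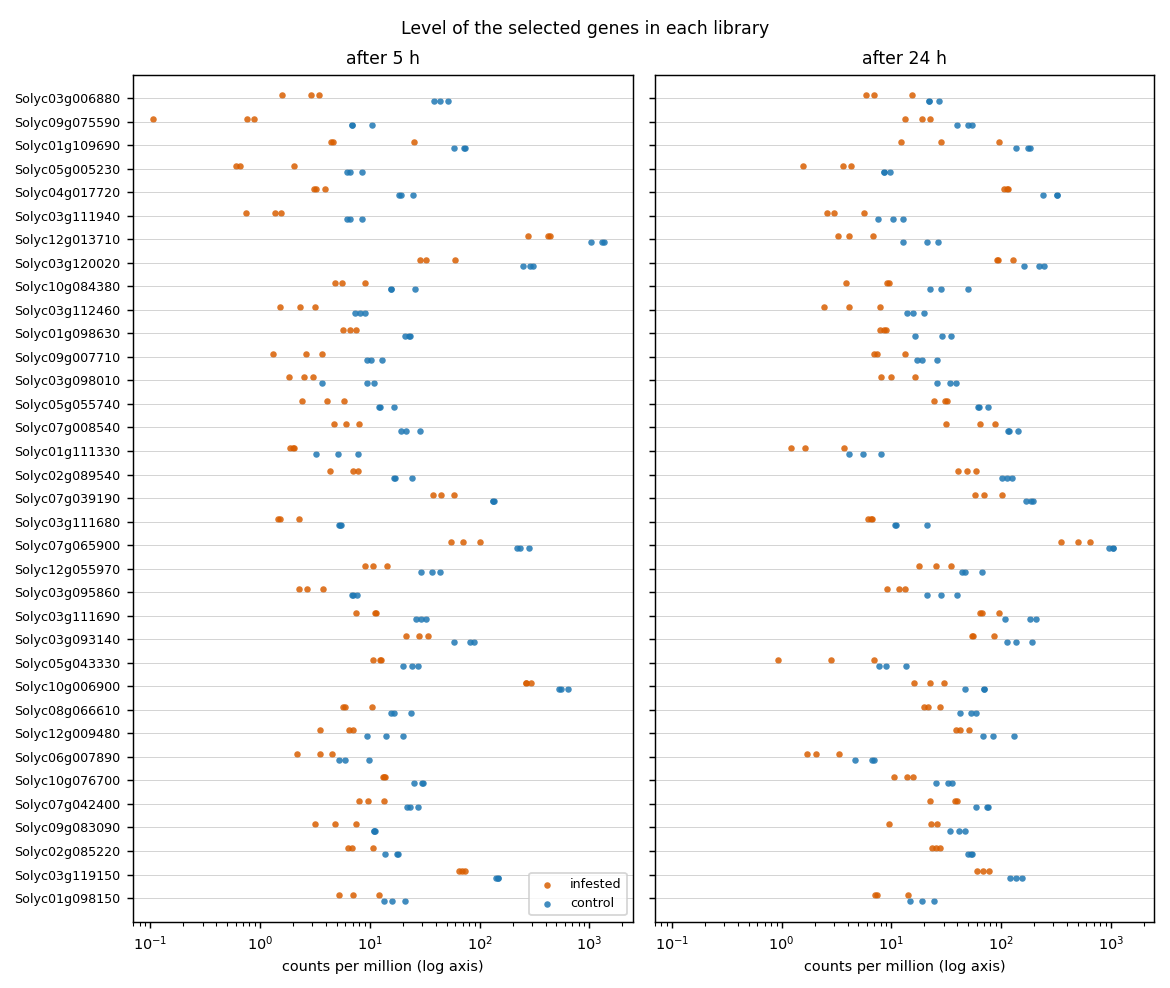
CPM (log axis) of each of the 35 selected genes in each infested (orange) and control (blue) library after 5 h (left) and 24 h (right), with genes ordered from the lowest mean log2 ratio at the top. By selection the orange points lie left of the blue points in each row, and the gap narrows towards the bottom.

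Just inside the ratio limit stood *Solyc03g120020* and *Solyc12g055970*, with 0.4997 and 0.499 at 24 h. Just outside it were *Solyc06g071030*, with 0.502 at 5 h and 0.5001 at 24 h, and *Solyc02g089350*, with 0.244 at 5 h and 0.502 at 24 h. A further 12 genes met the floor and both ratios but had overlapping libraries at 1 or both times. Of the 35 genes, 10 carry identifiers of chromosome 3 (28.6%), against 10.3% of the genes at the floor, with no test of that difference. Only the pectin lyase fold gene *Solyc03g111690* and the gene *Solyc03g111680*, annotated with the DNA polymerase III complex, were neighbours in the order of identifiers. *Solyc03g111690* had 11.2, 7.52 and 11.4 CPM in the infested libraries of 5 h and 32.2, 26.3 and 29.1 CPM in the controls, and *Solyc03g111680* had 2.28, 1.45 and 1.53 CPM in infested and 5.33, 5.22 and 5.48 CPM in control libraries. Of 54 genes at the floor that flank the selected genes in that order without belonging to them, 2 had a ratio of 0.5 or less at 5 h and 2 at 24 h. The share of all genes at the floor with such a ratio was not computed. Those of 5 h, *Solyc01g109670* at 0.447 and *Solyc01g109700* at 0.283, both flank *Solyc01g109690*. The median ratios of the 54 genes were 0.983 at 5 h and 1.10 at 24 h, against 0.978 and 1.12 over all genes at the floor.

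By edgeR's quasi-likelihood test, which was fitted to 18200 genes, 32 of the 35 genes were called lower in infested leaflets at 5 h (adjusted p below 0.05), where 5.59% of all tested genes were, and 35 at 24 h, where 12.5% of all were. These comparisons chose the genes. *Solyc05g043330*, *Solyc06g007890* and *Solyc09g083090* did not pass at 5 h.

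Which direction the genes took between the harvests was not part of the selection. Infested leaflets of 24 h were therefore compared with infested leaflets of 5 h, and control leaflets of 24 h with control leaflets of 5 h. A change in infested leaflets is the change in controls plus the difference of the infested to control log2 ratios, and the selection limits both ratios, so likeness between the treatments is in part built in. More of the selected genes rose than fell towards 24 h in both treatments, and the reductase genes fell in both. In infested leaflets 22 of the 35 genes were called higher at 24 h (62.9%) and 3 lower (8.57%), while 17.3% of all genes tested were higher and 17.4% lower. In controls 16 of the 35 were higher (45.7%) and 4 lower (11.4%), while 13.7% of all genes were higher and 14% lower. Among the genes at the control floor, 17.9% were higher and 20.9% lower in infested leaflets, and 15.3% were higher and 15% lower in controls. The median log2 fold change (24 h over 5 h) of the selected genes was 1.34 in infested leaflets and 0.82 in controls, against -0.02 in infested leaflets and 0.00 in controls over all genes. The 16 genes that rose in controls were among the 22 of infested leaflets, and 10 genes were called in neither treatment. With library totals in place of TMM scaling, the medians over all genes moved to 0.29 in infested leaflets and 0.13 in controls. The selected genes called were then 25 higher and 3 lower in infested leaflets, where 30.2% of all genes were higher and 8.95% lower. In controls 17 were then higher and 2 lower, where 17.4% of all genes were higher and 9.81% lower.

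The largest rise between harvests was that of *Solyc04g017720*. Its log2 fold change (± SE, 3 libraries a group) was 4.73 ± 0.20 in infested leaflets (adjusted p = 6.0e-08, edgeR) and 3.73 ± 0.18 in controls (adjusted p = 1.0e-07). *Solyc12g009480*, of the phosphate starvation response, rose by 2.67 ± 0.33 on the log2 scale in infested leaflets (adjusted p = 9.5e-05, edgeR) and by 2.58 ± 0.32 in controls (adjusted p = 0.00011). *Solyc09g075590*, with no annotation held, rose by 4.71 ± 0.43 on the log2 scale in infested leaflets (adjusted p = 1.0e-05, edgeR) and by 2.46 ± 0.35 in controls (adjusted p = 0.00025). For these genes no library of 24 h overlapped one of 5 h within a treatment. The aldolase gene *Solyc07g065900* rose by 2.42 ± 0.23 on the log2 scale in infested leaflets (adjusted p = 1.3e-05, edgeR) and by 1.92 ± 0.23 in controls (adjusted p = 7.4e-05). The neighbour *Solyc03g111690* rose by 2.60 ± 0.24 in infested leaflets (adjusted p = 1.1e-05, edgeR) and by 2.39 ± 0.24 in controls (adjusted p = 2.0e-05), and *Solyc03g111680* by 1.58 ± 0.28 in infested leaflets (adjusted p = 0.0011) and by 1.30 ± 0.27 in controls (adjusted p = 0.0032).

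The genes that fell between harvests were led by the reductases. *Solyc12g013710* had a log2 fold change of -6.66 ± 0.38 in infested leaflets (adjusted p = 3.3e-07, edgeR) and of -6.05 ± 0.37 in controls (adjusted p = 5.3e-07). Its control mean at 5 h was 61.0 times that at 24 h. *Solyc10g006900* had a log2 fold change of -3.89 ± 0.23 in infested leaflets (adjusted p = 5.0e-07, edgeR) and of -3.33 ± 0.23 in controls (adjusted p = 1.2e-06). *Solyc05g043330*, the gene outside the study's annotated list, had 0.923, 6.96 and 2.84 CPM in the infested libraries of 24 h, against 12.6, 10.6 and 12.3 CPM in those of 5 h (log2 fold change -2.05 ± 0.46, adjusted p = 0.0046, edgeR). In controls it had 8.88, 13.6 and 7.67 CPM at 24 h, against 20.1, 27.7 and 24.3 CPM at 5 h (log2 fold change -1.39 ± 0.44, adjusted p = 0.033, edgeR). The call in controls was lost without replicate 2 or 3 of 5 h and without replicate 1 or 3 of 24 h, and with library totals only, at adjusted p between 0.060 and 0.11 (edgeR).

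*Solyc03g006880* was called in opposite directions in the treatments. In infested leaflets it had 5.89, 15.4 and 6.99 CPM at 24 h, against 3.41, 1.595 and 2.90 CPM at 5 h (log2 fold change 1.52 ± 0.32, adjusted p = 0.0032, edgeR). In controls it had 21.9, 22.0 and 27.3 CPM at 24 h, against 51.2, 38.6 and 43.7 CPM at 5 h (log2 fold change -1.03 ± 0.29, adjusted p = 0.02, edgeR). The fall in controls lost its call without replicate 1 or 3 of 5 h and without replicate 1 or 2 of 24 h, and with library totals only, at adjusted p between 0.053 and 0.084 (edgeR). The anion exchanger *Solyc03g120020* rose by 1.08 ± 0.22 on the log2 scale in infested leaflets (adjusted p = 0.0027, edgeR) and had -0.56 ± 0.22 in controls (adjusted p = 0.078). In controls it was called lower by DESeq2's Wald test (adjusted p = 0.049) and by edgeR with only the 6 control libraries (adjusted p = 0.026). A further 4 genes were called in infested leaflets only, *Solyc03g111940*, *Solyc05g005230*, *Solyc09g007710* and *Solyc12g055970*, all higher at 24 h. Of these *Solyc09g007710* was called higher in controls too by DESeq2's Wald test (adjusted p = 0.031) and by edgeR with only the 6 control libraries (adjusted p = 0.017). For *Solyc05g005230* the call in infested leaflets (adjusted p = 0.048, edgeR) was lost with filterByExpr, with only the 6 infested libraries, without replicate 1 or 2 of 5 h and without replicate 2 or 3 of 24 h, at adjusted p between 0.0504 and 0.17 (edgeR). The difference between the treatments was not tested for any of these genes, since the selection used its terms.

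**Figure D5:**
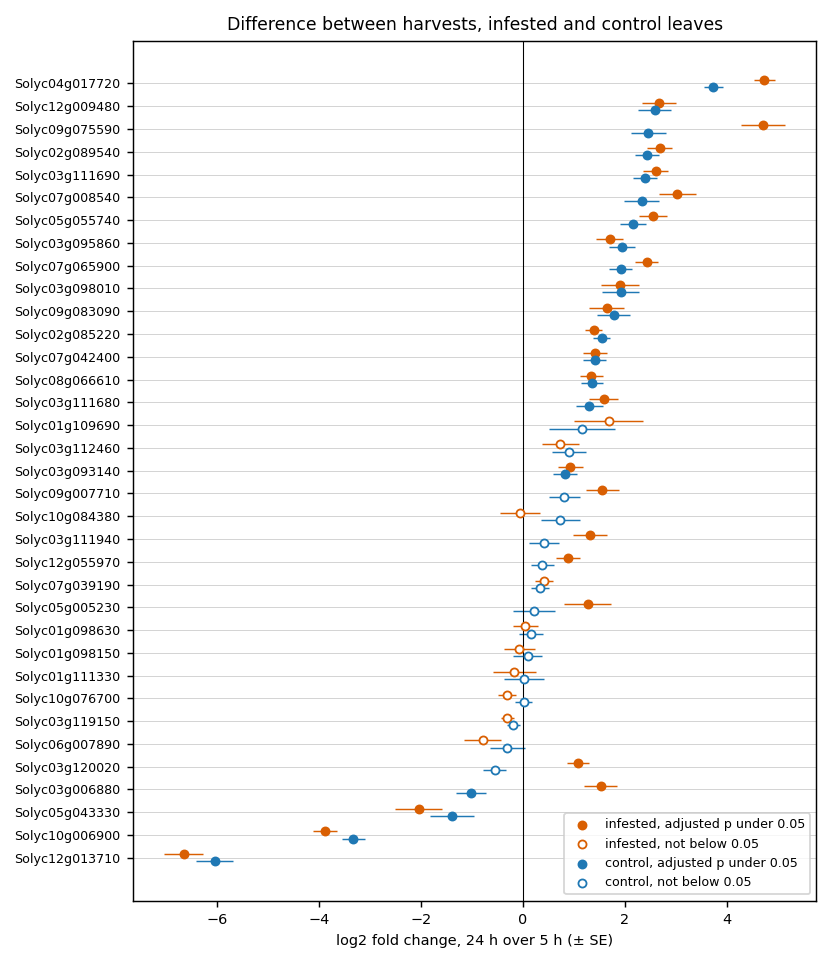
Log2 fold change between the harvests, 24 h over 5 h, with its standard error, in infested (orange) and control (blue) leaflets for each of the 35 selected genes, from edgeR. Filled points passed an adjusted p of 0.05, and 16 genes were filled to the right of 0 in both treatments, while the reductase genes Solyc12g013710 and Solyc10g006900 lie farthest to the left.

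For 10 genes no difference between harvests passed the test in either treatment, which does not show that their levels were equal. *Solyc03g119150* had a log2 fold change of -0.31 ± 0.13 in infested leaflets (adjusted p = 0.075, edgeR) and of -0.19 ± 0.13 in controls (adjusted p = 0.3). *Solyc10g076700* had a log2 fold change of -0.31 ± 0.17 in infested leaflets (adjusted p = 0.19, edgeR) and of 0.01 ± 0.17 in controls (adjusted p = 0.97). The others were *Solyc01g098150*, *Solyc01g098630*, *Solyc01g109690*, *Solyc01g111330*, *Solyc03g112460*, *Solyc06g007890*, *Solyc07g039190* and *Solyc10g084380*. For *Solyc01g109690*, whose infested libraries were uneven, the log2 fold change was 1.68 ± 0.67 in infested leaflets (adjusted p = 0.072, edgeR) and 1.16 ± 0.65 in controls (adjusted p = 0.21), with the widest standard errors of the 35 genes. By edgeR with only the 6 control libraries it was called higher at 24 h in controls (adjusted p = 0.00027). So were *Solyc03g112460* (adjusted p = 0.0065) and *Solyc07g039190* (adjusted p = 0.031) by that fit. *Solyc03g112460* was also called higher in controls with library totals only and by DESeq2's Wald test. In infested leaflets *Solyc01g109690*, *Solyc03g112460* and *Solyc07g039190* were called higher with library totals only and without replicate 1 of 24 h. There *Solyc01g109690* was also called higher without replicate 1 of 5 h, and *Solyc06g007890* lower without replicate 3 of 24 h.

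Other genes of chlorophyll synthesis and photosynthesis were read beside the reductase pair, from lists that the study drew from genes lower at 24 h in these samples, so that their direction at 24 h is no independent evidence. Of 19 genes annotated with tetrapyrrole biosynthesis, 1 was called lower in infested leaflets at 5 h, where 5.59% of all genes were, and 19 at 24 h, where 12.5% were. Between control harvests 6 of the 19 fell, where 14% of all genes did, and 1 rose. Their log2 fold changes between control harvests ran from -1.06 to 0.97, with a median of -0.22. Of 26 light harvesting genes, chosen as markers of leaf mesophyll, 26 were called lower in infested leaflets at 24 h. At 5 h their log2 fold changes (infested over control) lay between -0.57 and 0.04 (edgeR). Between control harvests 23 of the 26 fell, with log2 fold changes from -3.76 to 0.36 and a median of -2.37. The light harvesting genes are therefore not read as a measure of mesophyll. The reductase genes, at -6.05 and -3.33, thus fell more than each tetrapyrrole gene of the list, and *Solyc10g006900* lay within the range of the light harvesting genes. The summed level of the light harvesting genes was 70118 to 85656 CPM in infested and 81469 to 91235 CPM in control leaflets at 5 h, and 7686 to 11648 CPM in infested and 18390 to 25151 CPM in control leaflets at 24 h. The study named 5 genes for 3-ketoacyl-CoA synthases, enzymes of wax and cuticle lipids in the epidermis, among genes lower at 5 h here. Their direction at 5 h is therefore no independent evidence. Of these 5, 3 were called lower in infested leaflets at 5 h, where 5.59% of all genes were. At 24 h 2 were, where 12.5% of all genes were. Log2 fold changes of the 5 genes (infested over control) lay between -2.49 and -1.10 at 5 h. At 24 h they lay between -2.76 and -0.39. Their summed level was 15.4 to 18.3 CPM in infested and 41.2 to 54.1 CPM in control libraries at 5 h. At 24 h it was 51.6 to 57.9 CPM in infested and 57.8 to 133 CPM in control libraries. *Solyc08g067260* had the highest mean of the 5 in each group, with control means of 23.9 CPM at 5 h and 61.2 CPM at 24 h. *Solyc05g009270*, *Solyc09g065780* and *Solyc10g009240* did not meet the control floor. The gene *Solyc08g076930*, which the study names MYC1 and links to type VI trichomes, was higher in infested leaflets. That name and role were not checked here, so the gene is not read as a trichome marker. At 5 h it had 82.8 to 115.1 CPM in infested and 21.7 to 25.4 CPM in control libraries. At 24 h it had 39.6 to 61.2 CPM in infested and 12.5 to 16.6 CPM in control libraries. The part of these cell types in the levels of the selected genes was not tested.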

How the data were processed

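RNA was measured in leaflets of infested and control plants at 2 harvests. As given by the submitters' processing notes and the study's methods, the authors trimmed reads with Trimmomatic, mapped them with BWA and counted them per gene with featureCounts on the ITAG2.4 annotation. What they deposited is a raw, whole-number count for each gene, although the methods speak of FPKM. No source used here gives strandedness or the handling of reads with several matches.

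CPM were computed from library totals, and the selection rule was applied to 34075 genes. For tests, genes above 1 CPM in at least 3 libraries were kept (18200), scaled by TMM and fitted together over 12 libraries, with 1 mean per group, by the quasi-likelihood test of edgeR 4.0.16 in R 4.3.3, with Benjamini-Hochberg adjustment over all genes tested. The SE of a log2 fold change is its size over the square root of F. The test was tried on simulated data. At the library totals found, a floor of 3 counts was 0.106 to 0.153 CPM, which covers counting error only. DESeq2 1.42.0 served the alternatives, together with other scalings, filters, thresholds, a replicate block and each library left out.

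The genes, lists and rules were chosen with earlier results of these data known. Named genes were those with the lowest mean ratio, the highest control level, the extremes in the difference of ratios and between control harvests, the genes nearest the limit, neighbours, and up to 3 of each annotated role. The remaining genes, and the tetrapyrrole list, were named after their values were seen. Annotations come from the study's list of genes lower at 5 h, which covers 34 of the 35 genes, so no share of a role among all genes was computed. The RefSeq gene table matched 0 of the 34075 identifiers, and no sequence or promoter motif was used here.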

Additional observations from a re-analysis of the deposited data

How the results depend on the processing

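The set itself depends on its limits. It held 35 genes as selected, 70 with CPM scaled by TMM factors, 86 with a control floor of 1 CPM, 204 with a ratio limit of 0.67 and 4 with a limit of 0.33. Leaving out 1 library gave 30 to 67 genes. With group medians 40 genes met the rule, 27 of them among the 35. Of the selected genes called between the harvests, 24 of 25 in infested leaflets and 17 of 20 in controls stayed called under all 13 alternatives with the threshold of 0.05, which left out only libraries of the treatment compared. *Solyc05g005230* in infested leaflets and *Solyc03g006880*, *Solyc03g093140* and *Solyc05g043330* in controls did not. The 4 selected genes lower in controls became 2 at an adjusted p below 0.01 and 2 with library totals only, and 2 to 5 with 1 library left out. Of those not called, 4 of 10 in infested leaflets and 4 of 15 in controls changed sign under some alternative, and 4 of 10 in infested leaflets and 5 of 15 in controls were called under some alternative of these 13.

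Counts over all genes moved more. At an adjusted p below 0.01, 386 genes were lower in infested leaflets at 5 h and 1162 at 24 h, 1830 were higher and 1922 lower between infested harvests, and 1412 were higher and 1473 lower between control harvests. With library totals only, 1303 genes were lower in infested leaflets at 24 h, and 5493 were higher and 1628 lower between infested harvests. With only the 6 libraries of 24 h, 1127 were lower. With 1 library left out, 443 to 1188 genes were lower at 5 h, 1399 to 2207 at 24 h, 2333 to 3263 higher and 2495 to 3270 lower between infested harvests, and 1785 to 2856 higher and 1785 to 2671 lower between control harvests. The cause of these shifts was not tested.

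Same-numbered libraries correlated at between -0.27 and 0.34, and differently numbered ones at between -0.35 and 0.33. These are correlations of deviations from means of 3 libraries, which cannot decide whether any libraries were paired. With the replicate block, 22 selected genes were higher and 3 lower between infested harvests, and 16 higher and 4 lower between control harvests, as without it. It called 31 lower in infested leaflets at 5 h and 34 at 24 h.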
